A study of Mus musculus with 92 samples.

Results

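Transcripts of the 6 genes Mpo, Elane, Prtn3, Ctsg, Ctsc and Srgn were followed in single bone marrow cells. They were taken by symbol and are 6 of the 23956 gene symbols measured. Mpo encodes myeloperoxidase, the haem enzyme that makes hypochlorous acid in the phagosome. Elane, Prtn3 and Ctsg encode the serine proteases neutrophil elastase, proteinase 3 and cathepsin G. Ctsc encodes cathepsin C, which removes the amino-terminal dipeptide that keeps those proteases inactive. Srgn encodes serglycin, a proteoglycan whose sulfated chains hold the cationic proteases in the granule.

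Neutrophil granules are made in waves. The contents of the primary (azurophil) granule are transcribed at the promyelocyte stage, and those of the specific and gelatinase granules, such as lactoferrin and cathelicidin, are transcribed later. Mutations in ELANE are the commonest cause of severe congenital neutropenia, and loss of cathepsin C leaves the serine proteases inactive.

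The data are 92 single-cell transcriptomes from C57BL/6 mice of the genotype Gfi1-R412X/R412X, in which both copies of the gene for the repressor GFI1 carry a premature stop. Hindlimb marrow was crushed, enriched for CD117 on magnetic beads and sorted into 2 gates, GMP (usually read as granulocyte-monocyte progenitor, 45 cells) and CD11b+ GMP-P (47 cells), and cells were processed on a Fluidigm C1 chip with a SMARTer kit and Nextera XT. The sources used here do not give the age or the number of the mice, and 0 cells without the mutant genotype were at hand, so no value below measures the effect of the allele. The labels name no animals and give each gate 1 date code, so each gate was treated as 1 sample with no replicate. The gate cannot be told apart from the animal, the capture run or the date, so no test was made, and an SD describes the spread over cells.

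The authors' annotation puts the cells in 9 states. In GMP they are Multi-Lin (5 cells), cMoP (3), Mono (24), MP (5), Gran-1 (6) and Gran-2 (2). In CD11b+ GMP-P they are Multi-Lin (1), Mono (1), Gran-1 (4), Gran-2 (20), Myelo-1 (3), Myelo-2 (15) and Myelo-4 (3). The sources used here do not say how the states were called. If they were called from expression, the 6 genes may have had a part in it, so differences between states are descriptions. Genes detected per cell ranged from 2775 to 6612 in GMP and from 1993 to 5743 in CD11b+ GMP-P. Itgam, which encodes CD11b, had a mean log2(TPM + 1) of 4.41 ± 3.05 in CD11b+ GMP-P cells and 0.97 ± 2.04 in GMP cells (SD over cells). Gfi1 itself ranged from 0 to 391 TPM in GMP and from 0 to 585 TPM in CD11b+ GMP-P, and its level does not check a premature stop.

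The promoters of the 3 serine protease genes are shown as a description, and were picked with the levels below known. At 100 TPM or more, Elane and Prtn3 were on in the most Myelo-2 cells and Ctsg in 0. A link between motifs and levels was not tested. Prtn3 and Elane are neighbours on chromosome 10, in the order Plppr3, Prtn3, Elane, Cfd, Med16. The sequences are the 250 bases before each annotated start in RefSeq's GRCm38.p6, read 5′ to 3′ on the gene's strand. They lie at chr10:79879417-79879666 (plus strand), chr10:79886062-79886311 (plus strand) and chr14:56102575-56102824 (minus strand). Capitals mark GAGGAAG (a sequence bound by PU.1), AACGG and CAACTG (both bound by MYB) on either strand, so that CAGTTG is CAACTG on the opposite strand.
Prtn3: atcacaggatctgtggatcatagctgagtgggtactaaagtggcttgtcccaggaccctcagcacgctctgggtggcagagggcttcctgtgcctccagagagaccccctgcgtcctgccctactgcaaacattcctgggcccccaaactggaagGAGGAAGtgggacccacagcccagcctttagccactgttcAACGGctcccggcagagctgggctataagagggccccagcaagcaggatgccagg
Elane: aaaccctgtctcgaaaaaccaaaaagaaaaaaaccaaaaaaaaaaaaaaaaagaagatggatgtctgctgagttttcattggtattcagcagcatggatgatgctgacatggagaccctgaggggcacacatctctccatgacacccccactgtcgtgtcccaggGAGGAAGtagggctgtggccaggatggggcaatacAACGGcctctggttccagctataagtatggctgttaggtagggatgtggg
Ctsg: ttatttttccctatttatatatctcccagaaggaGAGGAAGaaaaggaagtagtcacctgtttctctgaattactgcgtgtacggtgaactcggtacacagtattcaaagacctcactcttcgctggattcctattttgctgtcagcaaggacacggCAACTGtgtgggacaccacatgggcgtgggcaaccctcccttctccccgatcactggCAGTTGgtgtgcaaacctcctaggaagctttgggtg

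Prtn3 held GAGGAAG at -95 and AACGG at -55 from its start, and Elane held them at -85 and -50, all on the gene's own strand. Of 32851 promoter windows of this length, 10.6% held GAGGAAG, 14.5% held AACGG and 1.53% held both. Among the 7 windows of the 6 genes (Srgn has 2 annotated starts), 5 held GAGGAAG and only those of Prtn3 and Elane held both. Ctsg held GAGGAAG at -216, CAACTG at -93 and, on the opposite strand, at -36, and TGTGGT (bound by RUNX factors, not capitalised) at -79 on the opposite strand. CAACTG was in 11.1% of all windows and in 3 of the 7, the other two being those of Srgn, and TGTGGT was in 14% of all windows and 2 of the 7. The windows of Mpo held GAGGAAG at -247 and -224, and that of Ctsc held it at -197 and -150 on the opposite strand. No match overlapped another, and TTGCGCAA and TTGCNNAA (C/EBP) and AAATCAC (GFI1) were in 0 of the 7 windows, against 0.164%, 9.56% and 2.75% of all. A match is a description of the letters and says nothing of binding in these cells.

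Across the GMP gate the 5 genes other than Ctsc were high in every cell outside Multi-Lin, and the 6 together took a median 5.45% of all TPM (0.574 to 9.94). TPM, the share of a cell's transcripts set to a fixed total, is scaled by transcript length, so levels can be set side by side. In the 24 GMP Mono cells the lowest, median and highest Mpo level was 7105, 21142 and 31240 TPM. Elane was close to it, at 7884, 21990 and 36493 TPM. The other serine proteases were lower, with Prtn3 at 2072, 5384 and 9733 TPM and Ctsg at 1016, 4643 and 6652 TPM. Srgn ran from 952 to 5230 TPM with a median of 3602. The order of the medians was therefore Elane, Mpo, Prtn3, Ctsg, Srgn, but the cell ranges of Elane and Mpo overlap almost wholly, as do those of Prtn3, Ctsg and Srgn, and neighbours within those groups do not differ beyond their spread.

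Ctsc, the activating enzyme, was far lower than its substrates. In GMP Mono it ran from 0 to 712 TPM with a median of 64.7, it was listed at 0 in 2 of 24 cells, and 9 cells (37.5%, exact 95% interval 18.8 to 59.4, counting error only) had at least 100 TPM. In the CD11b+ GMP-P gate most cells were at 0: Ctsc was listed at 0 in 3 of 4 Gran-1 cells, 13 of 20 Gran-2 cells, 3 of 3 Myelo-1 cells and 11 of 15 Myelo-2 cells. The highest Gran-2 value was 228 TPM. A gene used by most cells, Ppia, was at 0 in 1 of the 92 cells and Actb in 0, so a 0 for Ctsc is given as listed and not as absence.

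The MP and Gran-1 cells of the GMP gate were at levels like those of Mono, and the 3 cMoP cells were lower for 4 of the genes. Median Mpo was 23711 TPM in MP and 24235 TPM in GMP Gran-1, and median Elane was 24241 and 29917 TPM. Differences from Mono in mean log2(TPM + 1) lay between -0.27 and 0.25 in MP and between 0.25 and 0.69 in Gran-1 for the 5 genes without Ctsc, which is at or under about 1 SD of Mono cells. In the 3 cMoP cells Mpo was 7161, 14375 and 18542 TPM and Elane 4876, 15309 and 16430 TPM, and all of these values lay within the Mono range for Mpo and all but the lowest for Elane. Mean log2(TPM + 1) in cMoP minus Mono was -1.02 for Ctsg, -0.95 for Elane, -0.75 for Srgn and -0.59 for Mpo, each beyond 1 SD of Mono cells (0.80, 0.57, 0.68 and 0.53), and 0.12 for Prtn3, with overlapping cells throughout. The CD11b+ GMP-P cell named Mono, cell 70, had 32510 TPM of Mpo and 37954 TPM of Elane, just above the Mono cells of GMP. In the 2 GMP cells named Gran-2, Elane was 42732 and 57513 TPM, above each of the 24 Mono cells, while Mpo, at 18944 and 21522 TPM, was within their range.

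**Figure D1:**
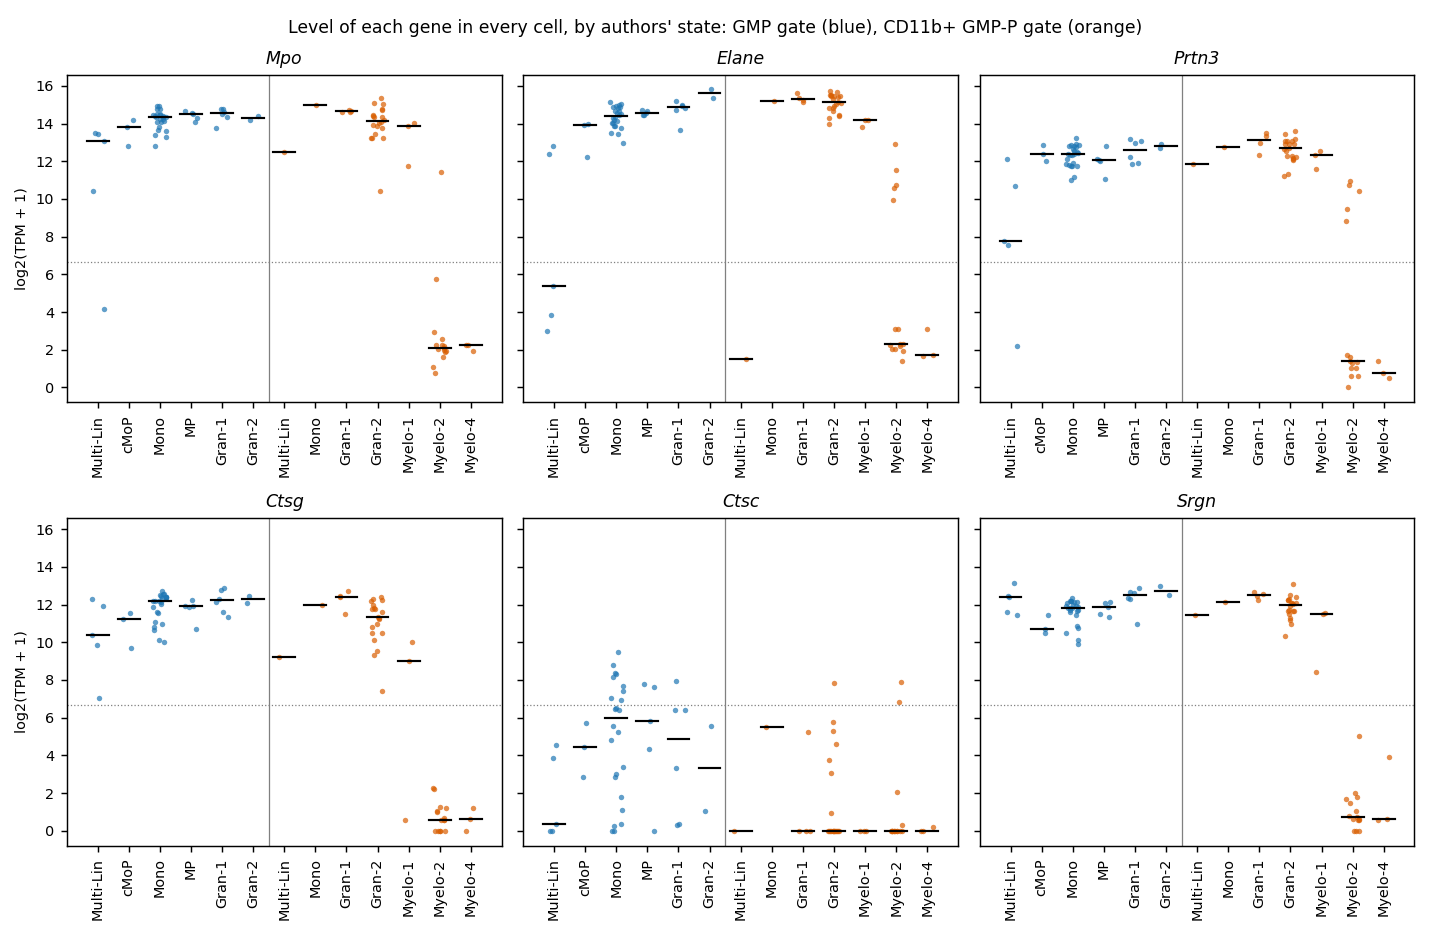
Level of each of the 6 genes in every cell, as log2(TPM + 1), by the authors' state, with GMP cells in blue left of the grey line and CD11b+ GMP-P cells in orange right of it; black bars are medians and the dotted line is 100 TPM. Levels of 5 genes are high from GMP to Myelo-1 and near 0 in most of the 15 Myelo-2 and all 3 Myelo-4 cells, Multi-Lin cells are uneven, and Ctsc is scattered throughout.

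Multi-Lin cells all had serglycin, while cathepsin G and the other granule genes were uneven. Srgn in the 5 GMP Multi-Lin cells was 2793, 3113, 5397, 5691 and 8937 TPM, with 3 of the 5 above the highest Mono cell and the others within the Mono range. Ctsg was 130, 934, 1344, 3848 and 4998 TPM. Elane was 7.1, 13.2, 41.1, 5287 and 7110 TPM, and each value was below the lowest Mono cell. Mpo ran from 17.1 to 11779 TPM, with some cells inside the Mono range. Prtn3 ran from 3.54 to 4468 TPM, with only cell 26 inside the Mono range. Relative to Mono, mean log2(TPM + 1) differed by -6.86 for Elane, -4.23 for Prtn3, -3.27 for Mpo, -3.24 for Ctsc, -1.53 for Ctsg and 0.60 for Srgn. Thus 5 of the 6 genes were at least 2-fold lower, beside 44.1% of 8315 genes compared, and the median over all genes was -0.81. Elane was among the 0.0842% of genes (7) for which every Multi-Lin cell lay below every Mono cell.

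Within single Multi-Lin cells the genes were not high or low together. Cell 23 had 4998 TPM of Ctsg and 5691 TPM of Srgn beside 13.2 TPM of Elane and 3.54 TPM of Prtn3. Cell 14 had 11003 TPM of Mpo and 3848 TPM of Ctsg beside 41.1 TPM of Elane. The CD11b+ GMP-P cell named Multi-Lin, cell 56, had 5664 TPM of Mpo and 3752 TPM of Prtn3 beside 1.9 TPM of Elane. Calling a gene on at 100 TPM or more, Ctsg and Srgn were on in all 6 Multi-Lin cells, Elane was off in 4, and Elane was on in no cell that lacked another of the 5 genes; at 10 TPM 1 cell and at 1000 TPM 1 cell broke that pattern.

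Markers of basophils and mast cells, which use serglycin and serine proteases of their own, were high in the same cells. Of 9 such markers 7 were above 0 in GMP Multi-Lin, with Tpsb2 and Cma1 at 0, and their summed level was 963 to 13379 TPM (median 5603) against 0.22 to 1613 (median 305) in Mono. All 7 that could be compared were at least 2-fold higher than in Mono, beside 9.38% of all genes. A gene was compared if enough cells of either state held it. Too few Mono cells held Cpa3, Ms4a2, Gata2, Prss34 and Fcer1a, whose mean log2(TPM + 1) there was 0.20, 0.40, 0.68, 0.05 and 0.00. They were compared only through Multi-Lin, which largely fixed their direction. The count of 7 therefore adds little to the summed levels. The monocyte markers summed to 2.17 to 1324 TPM in Multi-Lin and 342 to 18333 in Mono. Multi-Lin cells also had fewer genes detected, 3069 to 4688 against 3700 to 6612. The part of these differences in the levels of the 6 genes was not tested.

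In the CD11b+ GMP-P gate the 4 Gran-1 cells (79, 82, 85 and 95) were alike. Mpo was 25002, 25366, 26055 and 27353 TPM, and Elane 36240, 49650, 38581 and 41404 TPM. Ctsg was 5316, 2851, 5536 and 6714 TPM, and Srgn 6143, 5526, 6596 and 4765 TPM. The 6 genes made up 8.85% of all TPM in the median Gran-1 cell, from 8.07% to 9.06%.

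The 20 Gran-2 cells spread much more widely, and their ranges take in those of Gran-1 for every gene of the set but Ctsg. Mpo ran from 1382 to 42598 TPM (median 18060), Elane from 15871 to 54245 (36043), and Prtn3 from 2349 to 12249 (6568). Ctsg ran from 168 to 5379 TPM (2583) and Srgn from 1279 to 8821 (4034). Gran-2 minus Gran-1 in mean log2(TPM + 1) was -1.19 for Ctsg, -0.66 for Mpo, -0.63 for Srgn, -0.45 for Prtn3 and -0.26 for Elane. Only Ctsg was at least 2-fold lower, beside 27.8% of 8999 genes compared and a median over all genes of -0.25. Cell 71 had the lowest Mpo, Elane, Ctsg and Srgn of the Gran-2 cells, with 34670 TPM of Camp, the cathelicidin of the later granules.

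The balance among the 6 transcripts differed between these cells and the GMP Mono cells. Elane made up a median 52.6% of the 6-gene total in Gran-2 (42.7 to 74.7) and 38.8% in Mono (28.7 to 53.2). Mpo made up 27.1% and 36.5%, and Ctsg 3.72% and 7.60%. The log2 ratio of Elane to Mpo within a cell had a median of 0.15 for Mono, 0.21 for the Gran-1 cells of GMP, 0.58 for those of CD11b+ GMP-P and 0.96 for Gran-2, and was 1.17 and 1.42 in the 2 GMP Gran-2 cells. The log2 ratio of Ctsg to Elane had a median of -2.43 for Mono, -2.42 for the Gran-1 cells of GMP, -2.78 for those of CD11b+ GMP-P, -3.80 for Gran-2 and -5.21 for Myelo-1. These ratios do not depend on the TPM total of a cell. The cell ranges overlap between neighbouring states, and all 20 Gran-2 ratios of Elane to Mpo (0.30 to 3.52) were above the Mono median.

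**Figure D2:**
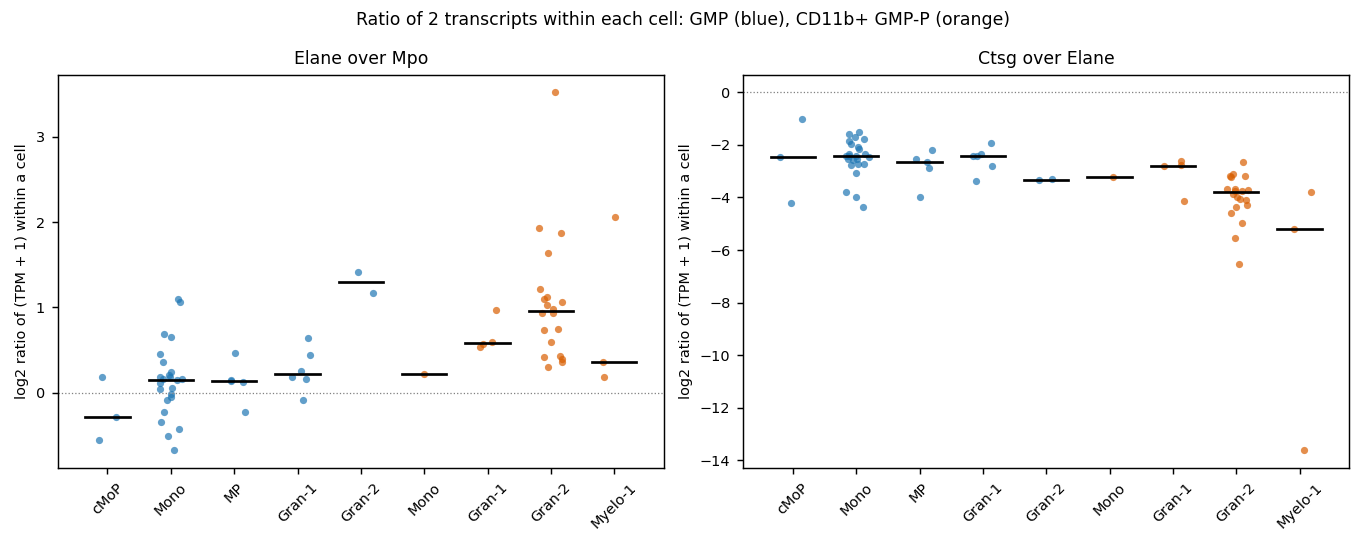
Ratio of Elane to Mpo (left) and of Ctsg to Elane (right) within each cell, as log2 of (TPM + 1), by state, with GMP cells in blue and CD11b+ GMP-P cells in orange; bars are medians. The median ratio of Elane to Mpo is 0.15 in Mono and 0.96 in CD11b+ GMP-P Gran-2, and that of Ctsg to Elane is -2.43 and -3.80, with overlapping cells.

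In the 3 Myelo-1 cells Mpo, Elane, Prtn3 and Srgn were on in every cell, Ctsg was uneven, and Ctsc was listed at 0 in all 3. Elane was 14237, 18854 and 18946 TPM in cells 94, 90 and 78, and Prtn3 was 3083, 5101 and 6011 TPM. Mpo was 3411, 16657 and 14757 TPM and Srgn 339, 3060 and 2897 TPM in the same order. Ctsg was 1028, 0.51 and 510 TPM, so that cell 90 had Ctsg near 0 while Mpo, Elane, Prtn3 and Srgn were within the Gran-2 range. Myelo-1 minus Gran-2 was -4.52 for Ctsg, with an SD of 5.17 over the 3 cells, -1.56 for Ctsc, and between -1.35 and -0.43 for Mpo, Elane, Prtn3 and Srgn. Of all 8297 genes 25.8% were at least 2-fold lower.

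In Myelo-2 the 5 genes were at or near 0 in most cells. Mpo had a median of 3.21 TPM (0.70 to 2774), Elane 4 (1.64 to 7821) and Prtn3 1.61 (0 to 1971). Ctsg had a median of 0.49 TPM and no cell above 3.87, and Srgn a median of 0.64 TPM and no cell above 31.1. The 6 genes together made up 0.0125% of all TPM in the median Myelo-2 cell against 6.53% in the median Gran-2 cell, and the highest Myelo-2 cell reached 1.23%.

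Myelo-2 minus Gran-2 in mean log2(TPM + 1) was -11.14 for Mpo, -10.72 for Srgn, -10.29 for Ctsg, -9.84 for Elane, -8.52 for Prtn3 and -0.42 for Ctsc. The first 5 were at least 8-fold lower, beside 11% of 7334 genes compared, and the median over all genes was -1.04. For Elane, Prtn3, Ctsg and Srgn every Myelo-2 cell was below every Gran-2 cell, which held for 8 genes in all (0.109%). Mpo overlapped through a pair of cells, the Myelo-2 cell 52 at 2774 TPM and the Gran-2 cell 71 at 1382 TPM. Ctsc ranges overlapped, and its sign turned to 0.18 when the median of widely detected genes was set equal in every cell.

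Myelo-2 cells had fewer genes detected than Gran-2 cells, 1993 to 3257 against 2629 to 5743. The part of detection in the difference was not tested. The monocyte markers summed to 111 to 3797 TPM in Myelo-2 and 1417 to 17655 TPM in Gran-2, and all 8 erythroid markers were at 0 in Myelo-2. The basophil and mast cell markers summed to 0 to 513 TPM (median 6.46) in Myelo-2 and 87.5 to 1698 TPM (median 686) in Gran-2. Of 6 eosinophil markers Ear2 alone was above 0 in Myelo-2, where the list summed to 0 to 2079 TPM (median 21.4) against 0 to 61.1 TPM (median 0) in Gran-2. Above 0 in Myelo-2 were also 1 of 7 T and NK cell markers, 2 of 6 B cell markers and 4 of 7 stem and multipotent progenitor markers, the last summing to a median of 0 TPM against 35.9 TPM in Gran-2.

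Cells holding some of the transcripts show which were on together. With on set at 100 TPM or more, all 5 genes were on in all 4 Gran-1 and all 20 Gran-2 cells and in 2 of 3 Myelo-1 cells, the exception being Ctsg in cell 90. In Myelo-2 Elane was on in 5 of 15 cells (33.3%, exact 95% interval 11.8 to 61.6) and Prtn3 in 5. Mpo was on in 1 of 15 (6.67%, 0.169 to 31.9), and Ctsg and Srgn in 0 of 15 (upper bound 21.8%). In the 3 Myelo-4 cells none of the 5 was on, with Mpo between 2.87 and 3.78 TPM, Elane between 2.16 and 7.48 TPM and Srgn up to 14.1 TPM. Each of these 5 was at least 8-fold lower in Myelo-4 than in Gran-2, beside 19.5% of genes, with every Myelo-4 cell below every Gran-2 cell, beside 2.75%. The Myelo-4 levels depend on the scale: with the median of widely detected genes set equal in every cell, median Mpo was 156 TPM and median Elane 117 TPM there, and the difference from Gran-2 was -6.59 and -7.69. The intervals cover counting error over cells only and overlap between all 5 genes in Myelo-2.

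**Figure D3:**
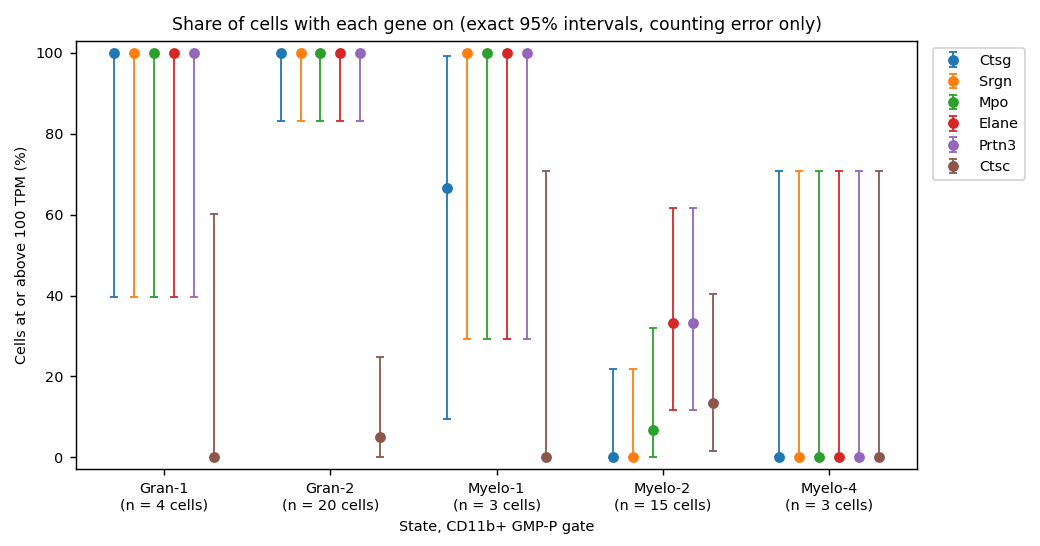
Share of cells with at least 100 TPM of each gene in the states of the CD11b+ GMP-P gate, with exact 95% intervals that cover counting error only. The 5 genes other than Ctsc are on in every Gran-1 and Gran-2 cell, Ctsg is on in 2 of 3 Myelo-1 cells, and in Myelo-2 Elane and Prtn3 are on in 33.3% of cells, Mpo in 6.67%, and Ctsg and Srgn in none.

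Over the 45 cells of these states the pattern was close to nested. Ctsg was on in no cell that lacked any of the other 4 genes. Srgn was on without Ctsg in 1 cell and never without Mpo, Elane or Prtn3. Mpo was on without Ctsg in 2 cells and without Srgn in 1, and never without Elane or Prtn3. Elane was on without Ctsg in 6 cells, without Srgn in 5, without Mpo in 4 and without Prtn3 in 1, and the same counts held for Prtn3, which was on without Elane in 1 cell. By the share of cells on, the order from the fewest to the most was therefore Ctsg, Srgn, Mpo, and Elane with Prtn3. The threshold of 100 TPM is the same for every gene although the Gran-2 medians run from 2583 TPM for Ctsg to 36043 TPM for Elane. At 1% of each gene's own Gran-2 median, Ctsg and Srgn were on in 0 of the 15 Myelo-2 cells, Mpo in 1, and Elane and Prtn3 in 5 each. The size of the difference gave another order, given above, with Mpo lowest (-11.14), then Srgn (-10.72) and Ctsg (-10.29). In the order by cells on, the step between Ctsg and Srgn rests on cell 90 and that between Srgn and Mpo on cell 52. At 10 TPM Srgn was on in 2 cells that lacked Mpo, Elane and Prtn3, and at 1000 TPM Ctsg was on in 1 cell that lacked Srgn. The nesting also depends on the scale. With the medians of widely detected genes set equal, median Mpo in Myelo-4 was above 100 TPM and median Prtn3 below it.

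The Myelo-2 cells that held any of the set were the following. Cell 52 had 2774 TPM of Mpo, 7821 of Elane and 1683 of Prtn3. Cell 80 had 2973 TPM of Elane and 1971 of Prtn3 beside 6.83 of Mpo. Cell 75 had 1704 TPM of Elane and 1353 of Prtn3 beside 53.9 of Mpo. These 3 cells held Elane and Prtn3 together, as did cell 67, with 1537 TPM of Elane and 447 of Prtn3. Cell 91 held only Elane (999 TPM) and cell 69 only Prtn3 (711 TPM, with 7.58 of Elane). In the other 9 cells none of the 5 genes was on, although Ctsc was at 113 TPM in cell 61 and 239 TPM in cell 68.

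Where Elane was on in Myelo-2 it was still low, and its highest value there, 7821 TPM, lay below the lowest Gran-2 value of 15871 TPM. Cell 52, with the most Elane, had the lowest Ngp of the 15 Myelo-2 cells (17182 TPM, against a median of 88800) and 618 TPM of Ltf. Ngp encodes a neutrophil granule protein of the later granules and Ltf encodes lactoferrin. Cell 80 had 23796 TPM of Ngp and the lowest Ltf, 49.6 TPM, against a median of 7394 TPM.

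The cells with part of the set thus held different parts of it in the 2 kinds of state. In Multi-Lin, Ctsg and Srgn were on in 6 of 6 cells while Elane was on in 2. At 1000 TPM, Srgn was on in all 5 GMP Multi-Lin cells, Ctsg in 3 and Elane in 2. The CD11b+ GMP-P Multi-Lin cell had neither Ctsg nor Elane at that level, so for Ctsg the contrast depends on the threshold. In Myelo-2, Elane was on in 5 of 15 cells while Ctsg and Srgn were on in 0. The states come from different cells, and no cell was followed over time.

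Between the gates as wholes, all 6 genes were lower in CD11b+ GMP-P. CD11b+ GMP-P minus GMP was -4.75 for Ctsg, -4.17 for Mpo, -4.05 for Srgn, -3.15 for Ctsc, -2.87 for Elane and -2.74 for Prtn3. All 6 were at least 2-fold lower, beside 39% of 7803 genes, and the median over all genes was -0.74. Without the cells of Myelo-1, Myelo-2 and Myelo-4 the difference was 0.23 for Mpo, 0.95 for Elane, 0.78 for Prtn3 and 0.15 for Srgn. For these 4 genes the lower level in CD11b+ GMP-P thus rests on the Myelo cells. The turn in direction still includes 5 Multi-Lin cells in GMP, where mean Mpo, Elane and Prtn3 were low, against 1 in CD11b+ GMP-P. The part of Multi-Lin in the turn was not tested. Ctsg and Ctsc stayed lower without the Myelo cells, at -0.44 and -2.80, so most of the Ctsc difference does not rest on the Myelo cells. The level of Gfi1 differed by 0.67 and that of Cebpe, a regulator of the later granule genes, by 2.53, while Irf8, a monocyte regulator, differed by -3.39.

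In Gran-2 the levels of Mpo, the 3 serine proteases and Srgn were correlated from cell to cell, while Mono and Myelo-2 were less even. Ctsc was listed at 0 in 13 of 20 Gran-2 and 11 of 15 Myelo-2 cells. Its correlations there thus rest on values at the floor and do not show that it varies apart. Pearson's r over log2(TPM + 1) is given as a description, since the cells of a state are not replicates and each has a fixed TPM total. In the 20 Gran-2 cells the 10 pairs without Ctsc had a median r of 0.64 (0.54 to 0.79), led by Elane with Ctsg (0.79), Mpo with Ctsg (0.78) and Mpo with Elane (0.75). The 5 pairs with Ctsc had a median of 0.15 (0.02 to 0.16). Without the 2 cells farthest from the median of the first gene of each pair, the 10 pairs had a median of 0.48 (0.24 to 0.61).

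In the 24 GMP Mono cells the same 10 pairs had a median r of 0.50 (0.14 to 0.69). Mpo with Elane had 0.69 and Elane with Srgn 0.68, while Prtn3 with Ctsg had 0.14, Prtn3 with Srgn 0.28 and Ctsg with Srgn 0.33. The 5 pairs with Ctsc had a median of 0.06 (-0.09 to 0.44), with Prtn3 at 0.44 and Elane at 0.33, so in Mono the 2 kinds of pair overlapped. In the 15 Myelo-2 cells the median was 0.43 (-0.02 to 0.77), led by Elane with Prtn3 (0.77, and 0.63 without the 2 farthest cells). There Mpo with Elane had 0.58, which was 0.02 without the 2 farthest cells, so that value rests on them. Srgn had r between -0.02 and 0.13 with the other 4 genes in Myelo-2. Its median there was 0.64 TPM, so these values also rest on levels at the floor.

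**Figure D4:**
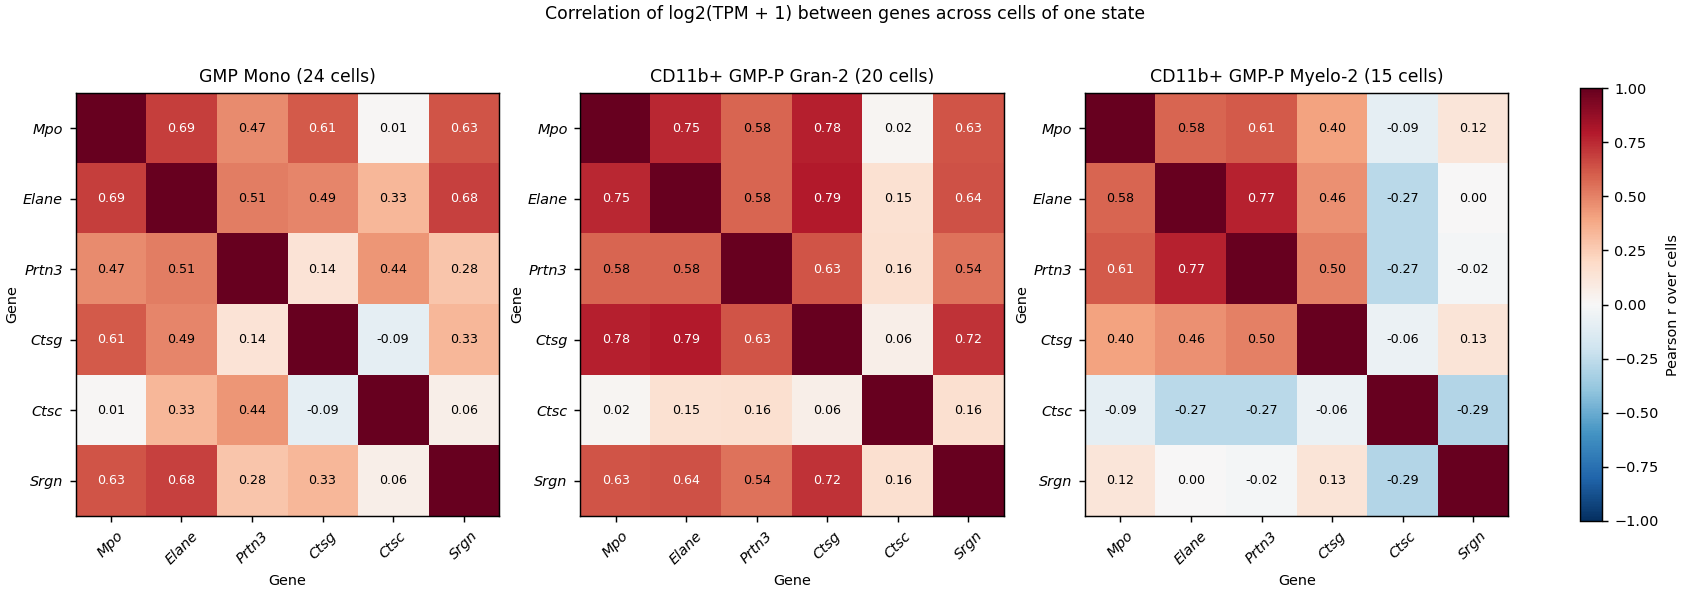
Pearson r between the 6 genes across the cells of 1 state, over log2(TPM + 1), for GMP Mono (24 cells), CD11b+ GMP-P Gran-2 (20) and Myelo-2 (15). The 10 pairs without Ctsc have medians of 0.50, 0.64 and 0.43. Pairs with Ctsc lie near 0 or below in Gran-2 and Myelo-2, where most cells have Ctsc at 0.

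Within Gran-2, cells with more Ngp had less of the 5 genes other than Ctsc, which was not set against Ngp: r with Ngp was -0.69 for Elane, -0.60 for Mpo, -0.54 for Ctsg, -0.45 for Prtn3 and -0.39 for Srgn. Within Myelo-2 it was -0.79 for Elane, -0.71 for both Prtn3 and Mpo, -0.49 for Ctsg and -0.24 for Srgn, although by Spearman's rho Mpo had -0.09 and Ctsg -0.17. With Camp in Myelo-2, r was 0.25 for Elane, 0.27 for Prtn3, -0.02 for Mpo, -0.17 for Ctsg and -0.32 for Srgn. A total fixed per cell makes an abundant transcript lower the share of others. Of a total of 1000000 TPM, Ngp had a median of 84.25 TPM in Gran-2 (highest 4092) and 88800 TPM in Myelo-2 (highest 142856). The part of the fixed total in these values was not tested.

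Over the 47 CD11b+ GMP-P cells, the genes most like the mean of the 6 among 6109 genes ranked were Lgals1 (r = 0.96), Nkg7 (0.91), Prss57 (0.90), Gstm1 (0.90), Mt1 (0.89), Hsp90ab1 (0.88), Txn2 (0.87) and Mif (0.87). Prss57 encodes a further serine protease of the neutrophil family and Lgals1 encodes galectin-1. Lgals1 had a median of 682 TPM in Gran-2 and 0.60 TPM in Myelo-2. The least alike were Ltf (-0.95), Ngp (-0.88), Mmp8 (-0.84), the gene for neutrophil collagenase, and Chil1 (-0.82). These values rest on cells of separate states and describe mainly the difference between states.

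The other genes of the primary granule were lower in Myelo-2 than in Gran-2 with the exception of the lysozymes. Of 20 listed, 19 could be compared, 17 were lower by 2-fold or more and 2 were higher, beside 51.2% and 2.62% of all genes, with a median of -3.08. Prss57 differed by -7.33, Cst7 (cystatin F, an inhibitor of cathepsin C) by -6.80 and Ms4a3 by -5.57, all smaller than the differences of Mpo, Srgn, Ctsg, Elane and Prtn3. Lyz2 and Lyz1, the lysozymes, differed by 4.93 and 4.91, and since they are close copies their reads may be shared. The late granule list had 17 of 20 at least 2-fold higher and 1 lower (median 2.29), with Ltf at 11.52, Ngp at 9.85, Camp at 5.88 and Lcn2 at 2.34.

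Genes for building the granule proteins were uneven against the 51.2% of all genes that were at least 2-fold lower and the all-gene median of -1.04. All 6 genes of the endoplasmic reticulum list for myeloperoxidase folding were at least 2-fold lower (median -3.51), among them Calr (-6.17), Hspa5 (-5.13), Pdia3 (-3.92) and Canx (-2.65), which encode calreticulin, BiP, ERp57 and calnexin. Of the haem synthesis genes 5 of 7 compared were lower by 2-fold or more and 0 higher (median -1.73), with Alas1, the first enzyme of the pathway, at -3.57 and Alad at -0.30. For serglycin's glycosaminoglycan chains only 6 of 14 genes were detected enough to be compared, and 2 were at least 2-fold lower (median -0.69), a smaller share and a smaller difference than over all genes. Fam20b, which phosphorylates the linker xylose, differed by -0.31, and the xylosyltransferases Xylt1 and Xylt2 and B4galt7 were not compared.

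Among granule sorting and transport genes 6 of 10 compared were lower by 2-fold or more and 0 higher (median -1.32), near the 51.2% and -1.04 of all genes. Subunits of the AP-3 adaptor, which carries cargo to lysosome-related granules, were uneven, with Ap3s1 at -4.15 and Ap3b1, Ap3d1 and Ap3m1 at -0.76, -0.65 and -0.12. Inhibitors of the proteases were 3 of 5 lower and 1 higher (median -1.25), beside 51.2% and 2.62% of all genes. The share lower and the median were near those of all genes. In Gran-2 minus Gran-1 only 4 inhibitors could be compared. At least 1 of the 5 thus entered here through Myelo-2 alone, which largely fixed its direction. Serpinb1a, an inhibitor of elastase, proteinase 3 and cathepsin G, was at -1.25, Slpi at -1.34 and Cstb at -3.90. Of other genes mutated in severe congenital neutropenia 5 of 6 compared were lower and 0 higher (median -2.75), with G6pc3 at -5.21, Csf3r at -3.08, Jagn1 at -2.41 and Hax1 at -1.74.

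Of 8 granulocyte transcription factors, 3 were at least 2-fold lower and 0 higher (median -0.84), a smaller share than the 51.2% of all genes, whose median was -1.04. Gfi1 differed by -3.32, with a median of 135 TPM in Gran-2 and 0 in Myelo-2. Cebpa, Cebpe, Cebpb and Spi1 (PU.1) differed by -0.87, -0.82, -0.09 and -0.62, all within 2-fold. Set against the median of all genes, the 5 granule genes other than Ctsc lay at -7.48 (Prtn3) to -10.10 (Mpo).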

How the data were processed

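Single cells were grouped by the gate in their titles and by the authors' state name. The 6 genes, the gene lists and the tests were chosen with earlier results of these data known. The submitters' processing notes name Bowtie2, RSEM and the mm9 build, and the sources used here give neither versions nor settings. The deposited expression table holds log2 values that, taken back to the linear scale, are TPM plus 1: without Ly6g, which was added outside the total, the TPM of each cell came to 1000000 to 1000001. The other deposited file gives a state number and name for each cell. The files held 0 columns of other samples, and 0 pairs of cells were identical.

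Read depth cannot be had from TPM and is unknown, and genes detected (above 0) stand in for it; 80.9% of values were 0. All cells were kept, and doublets were not called. Differences are of the mean of log2(TPM + 1) over cells, which understates the change of low genes, among genes detected in at least 25% of cells on either side. A fold of 2 or 8 describes size. Shares of cells at or above 100 TPM have 95% intervals by the exact Clopper-Pearson method, for counting error only. Differences and correlations were checked on simulated data. Python 3.11.15, numpy 2.4.6, pandas 2.3.3, scipy 1.17.1 and matplotlib 3.10.9 were used.

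Named genes were the 6, the first 4 of each of 9 gene lists in the order written, Gfi1, Cebpe and Irf8, and the 8 highest and 4 lowest by correlation with the mean of the 6; 1 gene so named is not reported here. Further genes named for their place (Itgam, the neighbours of Elane, Ear2 and other single markers) were added after their values were seen. Also checked were 7 lists of cell type markers: monocyte, basophil and mast cell, erythroid, eosinophil, stem and multipotent progenitor, T and NK cell, and B cell. Promoters come from RefSeq's table for GRCm38.p6, in which all 6 genes matched by symbol; no coordinates were converted from mm9. The planned comparison of protein sequences was not run. Alternatives were other pseudocounts, scalings, thresholds, filters, coefficients and sets of cells.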

Additional observations from a re-analysis of the deposited data

Results flagged for a closer look

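In each group of 4 to 10 cells, the highest and lowest cell of each of the 6 genes was checked for a wide gap to the others. This covered 24 sets of values, of which chance alone would flag about 1 in 20. Cell 10 of GMP MP stood apart with 1639 TPM of Ctsg, below the other 4 cells. Cell 25 of GMP Gran-1 stood below the other 5 cells in Elane (13150 TPM) and Srgn (2002 TPM), and it had 2775 genes detected, the fewest of the GMP gate. Cell 95 of CD11b+ GMP-P Gran-1 had 37.3 TPM of Ctsc where the other 3 cells were listed at 0. The cause was not tested in any of them.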

How the results depend on the processing

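No paired analysis was possible because the gates share no cell numbers and no result comes from a test. The differences of the 6 genes between states gave 224 recomputed values with the same direction and size and 16 that moved, outside the 2 comparisons given next. For Myelo-2 minus Gran-2, Ctsg was -11.99 and Srgn -12.06 with a pseudocount of 0.1, -7.62 and -8.27 with a pseudocount of 10, and Srgn was -9.24 when widely detected genes had equal medians. The counts of genes at least 2-fold apart in that comparison were 312 higher (pseudocount 0.1), and 86 higher and 1744 lower (pseudocount 10), against 192 and 3756. Between the gates 4595 genes were lower and 344 higher with 0.1, and 1247 and 98 with 10, against 3044 and 212. Without the Myelo cells the gate difference turned to 0.23 for Mpo, 0.95 for Elane, 0.78 for Prtn3 and 0.15 for Srgn, with the Multi-Lin cells of both gates still included. Ctsc was on in 0% of Myelo-2 cells at 1000 TPM, against 13.3%. The order with Ctsg and Srgn lowest, then Mpo, then Elane and Prtn3 held by share of Myelo-2 cells on at 10, 100 and 1000 TPM and at 1% of the Gran-2 median, though at 10 TPM Srgn (1 cell) and Ctsg (0) were nearly level with Mpo (2); it did not hold by difference of mean log2 with a pseudocount of 1, where Mpo lay lowest (-11.14), but under equal medians Srgn (-9.24) and Ctsg (-9.20) lay below Mpo (-8.83), and Elane (-7.40) and Prtn3 (-6.51) above it. Equal medians moved the median of all genes in Myelo-2 minus Gran-2 by 0.54, and leaving out the late granule list moved it by 0.14. Under equal medians the Myelo-4 medians were 156 TPM for Mpo, 117 for Elane, 42.9 for Prtn3, 15.9 for Ctsg and 44.8 for Srgn, so near-0 levels in those cells depend on the scale, and Myelo-4 minus Myelo-2 turned from -0.71 to 2.25 for Mpo; Srgn in Multi-Lin minus Mono went from 0.60 to 1.67. Correlations that changed sign without the 2 farthest cells were, in Mono, Prtn3 with Ctsg (-0.14), Ctsg with Ctsc (0.14) and Ctsc with Srgn (-0.10); in Gran-2, Ctsg with Ctsc (-0.06) and Ctsc with Srgn (-0.10); and in Myelo-2, Mpo with Ctsc (0.34), Mpo with Srgn (-0.08), Prtn3 with Srgn (0.08) and Ctsg with Ctsc (0.13). By Spearman's rho they were, in Gran-2, Mpo (-0.12), Elane (-0.03) and Ctsg (-0.05) with Ctsc, and in Myelo-2, Mpo with Ctsc (0.13) and Srgn (-0.04). The cause was not tested.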

Other observations

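Multi-Lin cells differed from Mono in the main folding genes less than in Mpo, Elane and Prtn3. The 4 first genes of the folding list, Calr, Canx, Pdia3 and Hspa5, differed by 0.45, -0.51, -0.54 and -0.42, within 2-fold, where Elane differed by -6.86; of all 6 genes of the list 2 were at least 2-fold lower (median -0.52, against -0.81 for all genes). Haem synthesis was uneven, with 5 of 7 compared at least 2-fold lower and 1 higher (median -2.11), beside 44.1% and 9.38% of all genes and an all-gene median of -0.81, led by Alas1 at -5.65. The protease inhibitor Slpi differed by -6.98. Of the granulocyte transcription factors, Gfi1 differed by -2.78 and Spi1 by -2.28.

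The next gene along from Elane, Cfd, a serine protease gene of the same cluster, was above 0 in 1 of 45 GMP cells and 1 of 47 CD11b+ GMP-P cells and reached at most 2.2 TPM, while Elane beside it reached 57513 TPM.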
